A study of Mus musculus with 52 samples.

Results

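Interferon-stimulated genes are the genes that cells switch on when an interferon binds its receptor, and 37 of them were followed here across primary bone marrow stromal cultures exposed to 5 chemicals. Members were the listed symbols that a probe set (the group of array probes read as 1 value) carried alone, and the probe set with the highest mean stood for a gene. Of 22180 genes with such a probe set, 34 were members. Ifi44, whose symbol no such probe set carried, Oas1a, whose probe set also carried Oas1g, and Gbp2, whose probe set also carried Gbp2b, were not analysed here. All 34 members were among the 14911 genes that passed the filter on low values, which asked for at least 4 of 52 arrays above the table's median of 4.05 on the log2 scale.

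The data were 52 GeneChip arrays of the Affymetrix Mouse Gene 2.0 ST design, 4 in each of 13 groups. Marrow of female C57BL/6J mice aged 8 weeks was pooled from 2 to 4 animals, each pool was an experiment, and every group held 1 array of each of pools 12, 15, 19 and 20. Osteoinductive medium, which contained insulin and dexamethasone, was added 7 days after plating, and cells were harvested 1 or 4 days later. The exposed groups received Rosi (rosiglitazone, 100 nM), an agonist of the fat cell receptor PPARγ, LG268 (LG100268, 100 nM), an agonist of the receptor RXR, TBT (80 nM), the usual short name of the organotin tributyltin, TPhP, the usual short name of the flame retardant triphenyl phosphate, or MEHP, the usual short name of a phthalate monoester, with doses of TPhP and MEHP not given in the labels. The vehicle groups received DMSO at 0.1%, and the naive group was undifferentiated cells taken without treatment before the medium change at day 7, although another passage of the labels lists naive cells among those given the new medium. Vehicle and naive cells thus differ in DMSO and time in culture, and by the first passage also in medium, with no array to tell these apart. No allele or transgene was named for any group, and the cultures were primary adherent marrow cells that had not been sorted by any step the labels describe.

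Type I interferon signals through JAK1 and TYK2 to a complex that includes STAT2 and IRF9 and binds the interferon-stimulated response element in the promoters of its targets. The targets include sensors of viral nucleic acid, enzymes and binding proteins that block viral replication, and regulators that extend or end the response. Interferon gamma acts on promoters with the gamma-activated site, and it is a strong inducer of the interferon-inducible GTPases. Marrow macrophages and stromal cells both carry the receptors of these interferons.

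The promoters of 29 of the 37 listed genes were at hand, as windows of 250 bases before to 50 bases after the gene start from RefSeq on build GRCm38.p6. Mx2, Rtp4, Dhx58, Oas2, Mx1, Zbp1, Parp14 and Usp18 had no entry. The core letters of the response element, GAAANNGAAA, were searched on both strands, with overlapping matches counted separately. They occurred in 17 of the 29 genes (58.6%), against 3.99% of 27025 genes with a window. The letters of the gamma-activated site, TTCNNNGAA, which read the same on both strands, occurred in 6 of the 29 (20.7%), against 9.55% of all genes. Both occurred in 4 (13.8%), namely Bst2, Eif2ak2, Igtp and Oas1a, against 0.614% of all genes. Among the 26 of these genes that were analysed as members, 15 (57.7%) held the core letters, 5 (19.2%) the gamma-activated site and 3 (11.5%) both. The windows of Irf7, Irf9 and Oasl2, members with large differences below, held no match of the core letters, which says only that these letters are not in those windows. The 5 windows below all hold a match, unlike those of Irf9 and the other genes without one. They belong to Irgm1, Ifi213 and Bst2, members called in comparisons below, and to Isg15 and Ifit1, 2 textbook targets. Each match of the core letters is shown in capitals. In Ifit1 the matches lie on the other strand, so its capitals read as the reverse complement of the motif.
Irgm1, minus strand of chr11:48871371-48871670: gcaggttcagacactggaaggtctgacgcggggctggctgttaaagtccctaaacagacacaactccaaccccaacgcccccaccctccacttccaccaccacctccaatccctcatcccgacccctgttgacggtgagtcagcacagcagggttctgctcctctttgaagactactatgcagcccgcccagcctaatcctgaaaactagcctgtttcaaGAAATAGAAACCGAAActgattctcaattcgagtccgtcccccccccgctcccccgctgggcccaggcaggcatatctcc
Ifi213, minus strand of chr1:173599223-173599522: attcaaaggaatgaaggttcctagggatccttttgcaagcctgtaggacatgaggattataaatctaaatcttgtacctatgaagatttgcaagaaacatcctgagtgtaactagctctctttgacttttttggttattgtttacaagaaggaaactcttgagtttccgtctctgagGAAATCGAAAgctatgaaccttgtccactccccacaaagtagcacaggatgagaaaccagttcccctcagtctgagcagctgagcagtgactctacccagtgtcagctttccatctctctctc
Bst2, minus strand of chr8:71537423-71537722: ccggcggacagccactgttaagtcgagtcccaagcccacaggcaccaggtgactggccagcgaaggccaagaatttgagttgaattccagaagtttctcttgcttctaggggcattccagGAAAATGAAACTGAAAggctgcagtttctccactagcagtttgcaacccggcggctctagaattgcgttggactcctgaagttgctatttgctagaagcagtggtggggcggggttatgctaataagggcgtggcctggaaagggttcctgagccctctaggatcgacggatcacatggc
Isg15, minus strand of chr4:156200769-156201068: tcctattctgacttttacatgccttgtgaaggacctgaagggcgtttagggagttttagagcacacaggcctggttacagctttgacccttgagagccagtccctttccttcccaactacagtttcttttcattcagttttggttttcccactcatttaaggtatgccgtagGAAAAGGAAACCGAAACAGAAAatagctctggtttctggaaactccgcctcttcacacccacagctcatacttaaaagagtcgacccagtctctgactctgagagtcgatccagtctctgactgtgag
Ifit1, plus strand of chr19:34640639-34640938: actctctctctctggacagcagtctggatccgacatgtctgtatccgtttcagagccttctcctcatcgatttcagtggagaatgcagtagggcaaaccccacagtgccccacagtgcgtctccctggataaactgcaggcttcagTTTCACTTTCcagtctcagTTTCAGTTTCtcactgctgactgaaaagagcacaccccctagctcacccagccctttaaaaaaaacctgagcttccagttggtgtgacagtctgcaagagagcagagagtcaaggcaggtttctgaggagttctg
The Irgm1 window held 2 overlapping matches, the first starting 30 bases before the gene start, Bst2 held 2 overlapping matches from 130 bases before it, and Isg15 held 3 from 78 bases before it. Ifit1 held 2 separate matches, 104 and 85 bases before the start, and Ifi213 held 1, 73 bases before it. Of the 5, Bst2 alone also held the letters of the gamma-activated site, in a stretch that overlaps its first match.

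Values in the text are the deposited log2 values, and differences are log2 differences ± SE from limma. The words rose and fell are kept for genes with a Benjamini-Hochberg adjusted p under 0.05 in limma. The 4 values of a group are given in the order of pools 12, 15, 19 and 20. All 15 stromal markers in the table, among them Col1a1 and Pdgfra, lay above the table's median in each group, and so did all 18 markers of macrophages and monocytes, among them Cd68, Csf1r and Adgre1, and the pan-leukocyte gene Ptprc. In the cultures labelled stromal, the mean of the 18 macrophage markers per array ran from 8.47 to 10.00 on the log2 scale. In such bulk RNA, fewer cells of a type and less RNA per cell cannot be told apart. Of the interferon genes themselves, Ifnb1, Ifna2 and Ifnk lay above the table's median on 0 of 52 arrays and Ifng on 1. Ifna1, Ifna4, Ifnl2 and Ifnl3 lay above it on all 52, and so did the receptor genes Ifnar1, Ifnar2, Ifngr1 and Ifngr2. Of 8 markers of plasmacytoid dendritic cells, a main source of type I interferon, Ccr9 lay above the table's median on 0 of 52 arrays and Klk1 on 2. Cox6a2 lay above it on 33, Siglech on 37 and Spib on 38, and Tcf4, Ly6d and Pacsin1 on all 52.

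The array of Rosi day 4 from pool 15 stood apart from the other 3 of its group. Its median over the 34 members, each gene centred on its mean over 52 arrays, was 0.53, against -0.76, -0.79 and -0.81 on the arrays of pools 12, 19 and 20. Calls at Rosi day 4 are also given without it.

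The levels of the 34 members varied with the pool. Each pool was also an experiment, so animals and experiment cannot be told apart. Members averaged over the 13 groups were highest in pool 12 (28 members) or pool 15 (6 members) and lowest in pool 19 (26 members) or pool 20 (8 members). The median of the members' centred values was 0.39 in pool 12, 0.34 in pool 15, -0.41 in pool 19 and -0.32 in pool 20, whereas the median over all genes tested stayed within 0.01 of 0 in each pool. Both arrays of pools 12 and 15 lay above both arrays of pools 19 and 20, by the members' median, in 12 of 13 groups. The exception was naive cells, where the order was reversed, with both arrays of pools 12 and 15 below both of pools 19 and 20.

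**Figure D1:**
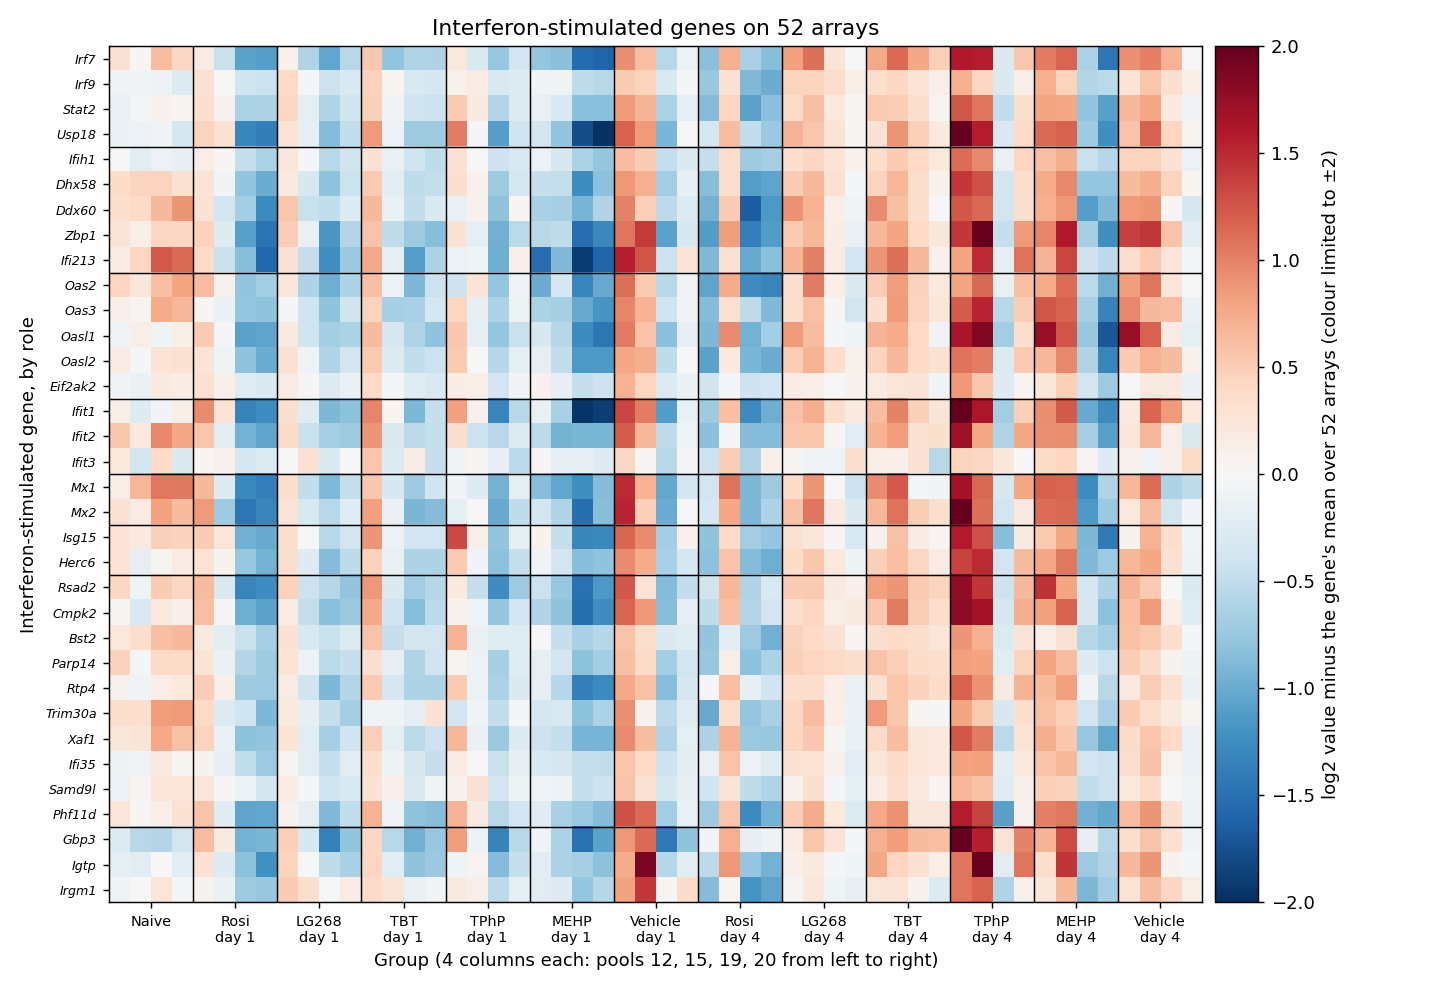
Deposited log2 value of each of 34 interferon-stimulated genes (rows, by role) on each of 52 arrays (columns, 4 per group in the order of pools 12, 15, 19 and 20), minus the gene's mean. Within most groups after induction the 2 left columns are redder than the 2 right ones, the MEHP day 1 block is mostly blue, and in the Rosi day 4 block the pool 15 column stands out in red.

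Naive cells differed little between pools. Their 4 array medians were 0.17, 0.01, 0.33 and 0.29. After 1 day of vehicle the same pools stood at 0.94, 0.64, -0.59 and -0.17, and after 4 days of vehicle at 0.50, 0.66, 0.27 and -0.09. The median SD of a member within a group was 0.180 in naive cells, where 15 members had their smallest spread, 0.731 in vehicle at day 1 and 0.368 in vehicle at day 4. It was largest in MEHP at day 4, at 0.985, with 21 members at their largest spread there, and in TPhP at day 4, at 0.825. The same quantity over all genes tested was 0.174 in naive cells, 0.129 in vehicle at day 1, 0.174 in vehicle at day 4, 0.206 in MEHP at day 4 and 0.185 in TPhP at day 4. The 41 interferon-responsive genes in the table that were not members split the pools in the same 12 of 13 groups. The same order of pools held for the list means of upstream sensing genes in 12 of 13 groups and of stromal markers in 10. For macrophage markers and antigen presentation genes it held in 8 each, and for neutrophil and endothelial markers in 7 each. For T and NK cell, B cell, plasmacytoid dendritic cell and osteoclast markers it held in 6 each. For pan-leukocyte genes it held in 5, for dendritic cell markers in 4, for interferon ligand, receptor and signalling genes in 4 and for adipocyte genes in 0. Neutrophil markers, for example, stood at 8.57, 8.27, 6.81 and 6.99 in vehicle at day 4. In MEHP at day 4, where that order did not hold for them, they stood at 6.43, 8.46, 6.82 and 7.53. The part of these cells in the pool pattern was not tested.

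**Figure D2:**
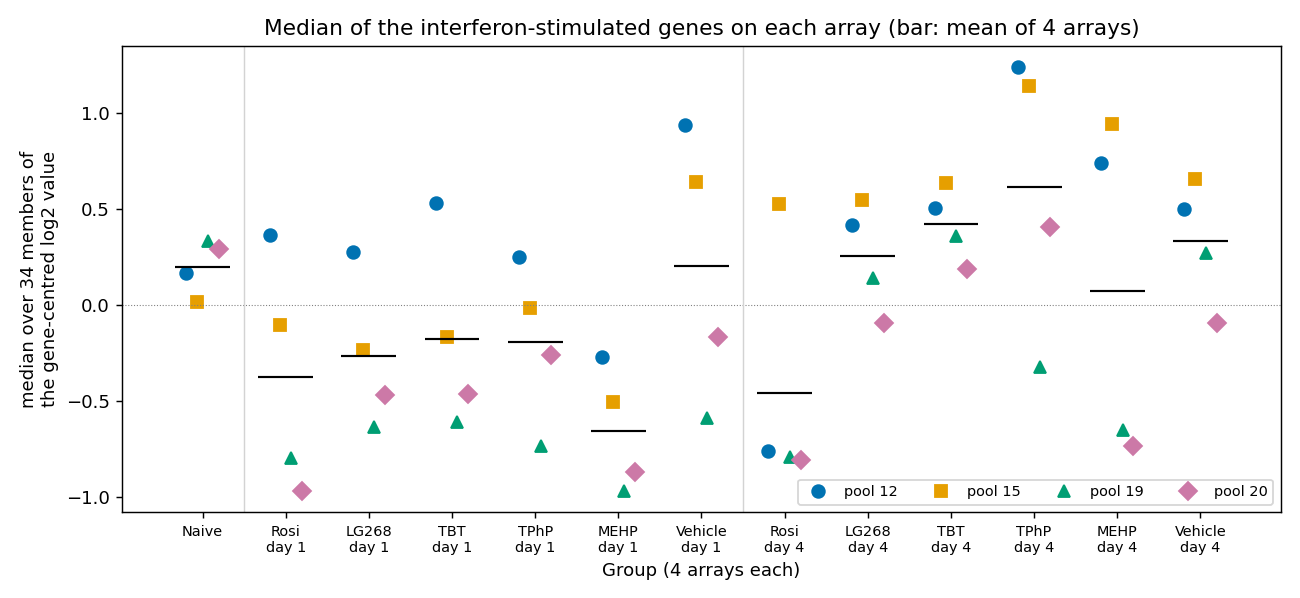
Median over the 34 members of the gene-centred log2 value (vertical axis) on each array, by group (horizontal axis), with a symbol for each pool and a bar at the mean of 4 arrays. The naive arrays lie between 0.01 and 0.33, the MEHP day 1 arrays between -0.97 and -0.27, and the TPhP day 4 arrays between -0.32 and 1.24.

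Ordered by group, the median of the members' centred means ran, at day 1, at -0.35 in Rosi, -0.30 in LG268, -0.18 in TBT, -0.19 in TPhP, -0.75 in MEHP and 0.19 in vehicle. At day 4 it was -0.48 in Rosi, 0.28 in LG268, 0.44 in TBT, 0.63 in TPhP, 0.07 in MEHP and 0.33 in vehicle, and it was 0.17 in naive cells. The group mean of a member was highest in TPhP at day 4 for 29 of 34 members, and lowest in MEHP at day 1 for 24 and in Rosi at day 4 for 9. The exceptions at the top were Bst2 and Trim30a, highest in naive cells, Irgm1, highest in vehicle at day 1, Irf9, highest in LG268 at day 4, and Phf11d, highest in TBT at day 4. Ifit3 was lowest in TPhP at day 1. Ordered by these 13 medians, each group overlapped with its neighbours in the array medians of the pools.

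Vehicle cells were set against naive cells to see what the osteoinductive medium, DMSO and time did to the members. None passed limma's test at day 1 or at day 4. At day 1 the median difference was -0.02 over the 34 members and 0.05 over all genes, made up of 0.74, 0.57, -1.02 and -0.45 in pools 12, 15, 19 and 20. No member had the same sign in 4 of 4 pools. The sensor Ifih1 shows it, at 8.94, 8.83, 7.84 and 8.03 in vehicle at day 1, against 8.30, 8.11, 8.20 and 8.15 in naive cells. The vehicle arrays thus lay above the naive arrays in pools 12 and 15 and below them in pools 19 and 20. Of the 34 members, 1 was past an unadjusted p of 0.05, against 29.8% of all genes, and 17.7% of all genes tested were called in either direction. With the pool as replicate block, Irgm1 alone rose (0.62 ± 0.21, adjusted p = 0.0255 with the block), 1 of 34 against 16% of all genes. Irgm1 encodes a GTPase of autophagy and of defence against intracellular pathogens, and stood at 8.04, 8.66, 7.27 and 7.61 in vehicle at day 1, against 7.16, 7.24, 7.48 and 7.20 in naive cells. The groups overlapped, and pool 19 ran the other way. Without pool 12, Trim30a was the single member called, and it fell by 0.91 (adjusted p = 0.0233).

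At day 4 the members' median difference between vehicle and naive cells was 0.14, beside 0.05 over all genes, and 7 members had the same sign in 4 of 4 pools. 0 of 34 passed the test, also at an unadjusted p of 0.05, against 28.9% of all genes called in either direction and 39.1% past the unadjusted threshold. With the replicate block 1 member rose, against 20.3% of all genes: Irf9, which gives the complex with STAT2 its DNA binding (0.44 ± 0.16, adjusted p = 0.0321 with the block). Irf9 lay at 8.43, 8.70, 8.47 and 8.29 in vehicle at day 4, against 8.09, 8.10, 8.03 and 7.89 in naive cells. All 4 vehicle arrays were above all 4 naive arrays. Fitted on the arrays of these groups alone, Irf9 and Gbp3 were called. Among 39 tested interferon-responsive genes that were not members, 5 rose in vehicle at day 4 relative to naive cells (13 with the block) and none fell, with Gbp7 (1.53 ± 0.43), Ly6e (0.49 ± 0.13), Lgals3bp (0.46 ± 0.11), Ifitm2 (0.55 ± 0.16) and Lgals9 (0.66 ± 0.24, named after its value was seen) as the 5. Between vehicle at day 4 and vehicle at day 1 the median difference was 0.18 over members and 0.01 over all genes. There 0 of 34 passed the test with or without the block, and 0 at an unadjusted p of 0.05, against 12.9% of all genes called and 25.9% past the unadjusted threshold.

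The chemicals were each set against vehicle of the same day, so the 5 comparisons of a day share their 4 vehicle arrays. At day 1, the vehicle arrays of pools 12 and 15 were among the highest for these genes, as given above. MEHP at day 1 had the lowest values, with all 34 differences below 0 and 33 of them below 0 in 4 of 4 pools. The median difference was -0.99, beside -0.00 over all genes tested, of which 50.8% were below 0. By pool it was -1.30, -1.15, -0.40 and -0.70.

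Ifi213, a gene of the PYHIN family that includes sensors of DNA, fell after 1 day of MEHP (-2.14 ± 0.44, adjusted p = 0.00727) as the single member called, 1 of 34 (2.94%) against 0.161% of all genes. Ifi213 stood at 3.98, 4.61, 3.60 and 3.90 in MEHP, against 7.05, 6.75, 5.07 and 5.78 in vehicle at day 1. No MEHP array reached the lowest vehicle array, and 3 of the 4 MEHP arrays were below the table's median, so the size of the difference is uncertain. Leaving out pool 19 kept the call at an adjusted p of 0.031, and the call was lost at 0.0866 without pool 12, 0.0663 without pool 15 and 0.176 without pool 20. With the replicate block 10 members fell (29.4%), against 0.523% of all genes. The 10 were Ifi213, Irgm1 (-1.11 ± 0.21, adjusted p = 0.00124 with the block), Usp18, Cmpk2, Irf7, Rtp4, Dhx58, Oas2, Ifit2 and Oasl2. Past an unadjusted p of 0.05, in the fit without the block, were 25 of 34 members, against 4.08% of all genes that were lower and past it.

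Members of each role lay below vehicle in their median, whether or not they passed a test. Irf7, the factor that amplifies interferon production, stood at 8.30, 8.24, 7.54 and 7.47 in MEHP at day 1, against 10.01, 9.68, 8.53 and 8.95 in vehicle, and Usp18, which removes ISG15 and dampens receptor signalling, differed by -1.51 ± 0.52, adjusted p = 0.291. The lowest vehicle array of Irf7, from pool 19, was above all 4 MEHP arrays. Ifit1, which binds viral RNA, stood at 8.04, 7.54, 6.22 and 6.30 in MEHP and 9.53, 9.21, 7.06 and 8.04 in vehicle. Its groups overlapped, with each pool lower in MEHP, and it passed in neither fit. Isg15, the ubiquitin-like modifier, stood at 8.10, 7.55, 6.73 and 6.75 in MEHP, against 9.19, 8.97, 7.34 and 8.11 in vehicle, and Bst2, the tetherin that holds virus particles at the cell surface, at 10.41, 9.94, 9.75 and 9.83 in MEHP, against 10.97, 10.76, 10.11 and 10.15 in vehicle. The groups overlapped in both genes, and neither passed in either fit. Oasl2, of the oligoadenylate synthetase family, was at 9.28, 8.98, 8.33 and 8.33 in MEHP and 10.26, 10.20, 8.96 and 9.47 in vehicle, and Ifih1 at 8.20, 7.99, 7.69 and 7.55 in MEHP and 8.94, 8.83, 7.84 and 8.03 in vehicle. Of these, Oasl2 passed with the block and Ifih1 in neither fit. Median differences by role lay between -0.73 in the group of other effectors and -1.14 in the IFIT family and the Mx GTPases, and the member nearest to 0 was Ifit3 at -0.10, the 1 member with a pool (19) above vehicle.

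Other pathway lists had medians nearer to 0 at day 1 of MEHP. Among interferon-responsive genes that were not members, 1 of 39 fell, Ly6e (-0.67 ± 0.13), with a list median of -0.55, and 4 fell with the block (Ly6e, Gbp9, Gbp7 and Ms4a4c). None of 19 ligand, receptor and signalling genes, 19 upstream sensing genes or 15 antigen presentation genes passed the test, with medians of -0.04, -0.16 and -0.26. Macrophage and monocyte markers had a mean level of 9.57 to 9.75 per array in MEHP, against 9.84 to 9.97 in vehicle, and 0 of 18 were called with or without the block. Neutrophil markers lay at 6.90 to 7.02 in MEHP, against 7.19 to 7.72 in vehicle, with 0 of 11 called. The part of these cells in the members' values was not tested. Of 6 adipocyte genes, 5 rose by then, with Fabp4 at 1.87 ± 0.20. Of all 14911 genes tested, 78 were called in either direction at MEHP day 1, and 24 of these fell.

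Rosi at day 1 gave 34 of 34 differences below 0 as well, 26 of them in 4 of 4 pools, with a median of -0.58 beside 0.00 over all genes. Irgm1 fell (-1.04 ± 0.30, adjusted p = 0.024), 1 of 34 (2.94%) against 3.08% of all genes, a share near that of all genes. With the block 3 fell, against 4.12%: Irgm1, Ifi213 (-1.28 ± 0.35, adjusted p = 0.0113 with the block) and Igtp (-0.96 ± 0.31, adjusted p = 0.041 with the block). Irgm1 stood at 7.31, 7.11, 6.53 and 6.48 in Rosi at day 1, against 8.04, 8.66, 7.27 and 7.61 in vehicle. The groups overlapped in range, and each pool was lower in Rosi. Its adjusted p was 0.0653 without pool 12, 0.104 without pool 15 and 0.212 without pool 20, and 0.061 when only the arrays of these groups were fitted. Igtp, another immunity-related GTPase, stood at 7.58, 7.02, 6.48 and 6.09 in Rosi and 8.03, 9.17, 6.72 and 7.08 in vehicle. The difference was largest in pool 15.

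No member passed the test after 1 day of LG268, TBT or TPhP, with or without the block. All genes called in either direction were 0.241% for LG268, 0.543% for TBT and 0.215% for TPhP. Past an unadjusted p of 0.05 lay 1, 1 and 2 of the 34 members for these 3 chemicals, against 4.02%, 6.44% and 5.54% of all genes. The members' median differences were -0.46, -0.39 and -0.37, and 33, 33 and 34 of 34 differences were below 0. The member with the smallest p under LG268 and TBT was Ifi213, at -1.19 (95% interval -2.09 to -0.30) and -0.94 (-1.84 to -0.05), and under TPhP it was Irgm1, at -0.76 (-1.37 to -0.15). Ifi213 stood at 5.79, 5.04, 4.28 and 4.76 in LG268, 6.26, 5.32, 4.39 and 4.89 in TBT and 5.39, 5.41, 4.52 and 5.60 in TPhP, against 7.05, 6.75, 5.07 and 5.78 in vehicle. It was lower than vehicle in 4 of 4 pools under each of the 3. Members with 1 sign in 4 of 4 pools numbered 18 for LG268, 10 for TBT and 14 for TPhP.

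**Figure D3:**
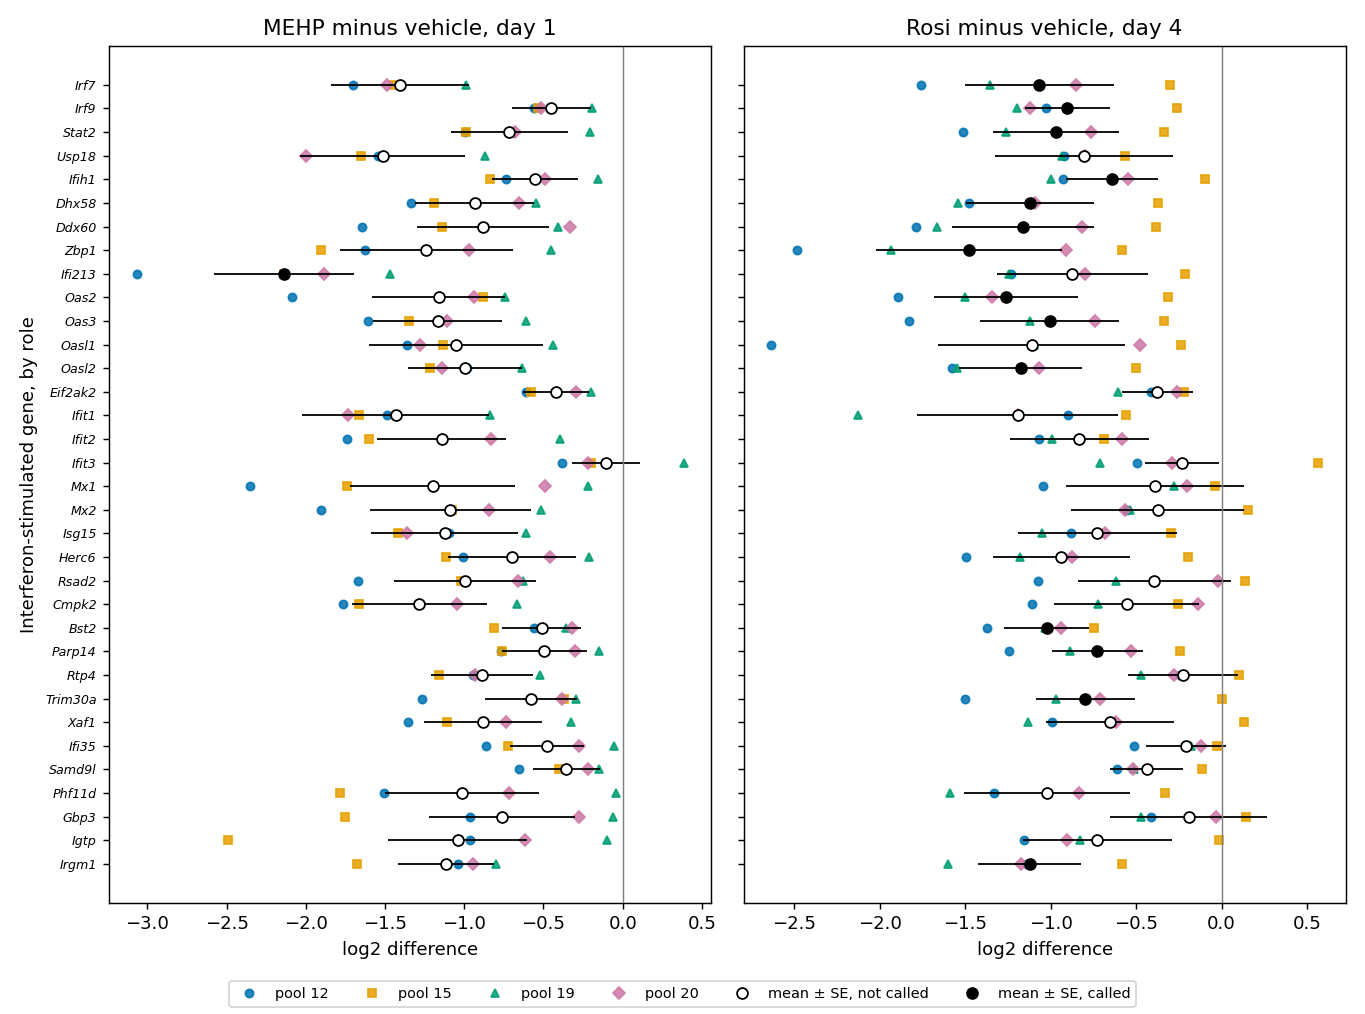
Log2 difference from vehicle (horizontal axes) of each of 34 members (rows, by role) for MEHP at day 1 and Rosi at day 4, with a coloured symbol per pool and the mean ± limma SE in black, filled where the adjusted p was under 0.05. Nearly all symbols lie left of 0, and at Rosi day 4 the pool 15 squares lie nearest to 0 for most members.

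After 4 days Rosi had the most members past the test: 14 of 34 fell and none rose. All 34 differences were below 0 and 27 had that sign in 4 of 4 pools, with a median of -0.82 beside -0.05 over all genes. The 14 (41.2%) stand beside 27.7% of all genes that fell, as Rosi at day 4 changed much of the array. With the replicate block 25 fell (73.5%), against 30.2% of all genes, and they include the 14. Without the pool 15 array of Rosi day 4, a fit added after the data were seen, 23 fell, against 29.4% of all genes, again including the 14, with a median of -1.11. That array was left out for its high member values, so lower Rosi means follow from the choice. The calls gained in that fit are not separate support. Leaving out a whole pool gave 4 members without pool 12, 16 when pool 15 was dropped, 6 when pool 19 was and 7 when pool 20 was.

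The factors that drive and extend the response were among the genes that fell at Rosi day 4. Irf9 stood at 7.40, 8.44, 7.27 and 7.17 in Rosi, against 8.43, 8.70, 8.47 and 8.29 in vehicle (-0.90 ± 0.25, adjusted p = 0.00226). Arrays of pools 12, 19 and 20 in Rosi were below every vehicle array, and the pool 15 array was not. Irf7 stood at 8.24, 9.79, 8.42 and 8.23 in Rosi, against 9.99, 10.09, 9.78 and 9.08 in vehicle (-1.07 ± 0.44, adjusted p = 0.0401). Again the pool 15 array overlapped with vehicle. Stat2, which supplies activation of transcription in that complex with IRF9, fell, with a difference of -0.97 ± 0.37, adjusted p = 0.0266. Irf7 was at an adjusted p of 0.0534 after cyclic loess and 0.0543 with no filter on low values, and at 0.0068 without the pool 15 array of Rosi, while Irf9 kept an adjusted p under the threshold in each alternative, from 9.89e-06 with the block to 0.0283 without pool 20.

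Sensors of nucleic acids fell in 4 of 5 cases. The largest difference among all members was that of Zbp1, a sensor of Z-form nucleic acid that can trigger cell death (-1.48 ± 0.55, adjusted p = 0.0217). Zbp1 stood at 6.98, 8.93, 6.74 and 6.98 in Rosi, against 9.47, 9.52, 8.67 and 7.89 in vehicle. The groups overlapped through the pool 15 array of Rosi. Ddx60 and Dhx58, helicases of the RNA sensing pathway, and Ifih1, the sensor of long double-stranded RNA, also fell, by 1.16, 1.12 and 0.64 on the log2 scale. The call of Ifih1 was lost after cyclic loess (adjusted p = 0.0602) and with no filter on low values (0.0629). Ifih1 stood at 7.84, 8.67, 7.61 and 7.65 in Rosi and 8.77, 8.77, 8.61 and 8.20 in vehicle. The fifth sensor, Ifi213, differed by -0.87 ± 0.44, adjusted p = 0.1. It differed by -1.18 ± 0.47, adjusted p = 0.0319 without the pool 15 array of Rosi, which was left out for its high values.

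Of the antiviral enzymes, Oas2, Oas3 and Oasl2 fell, while Oasl1 and Eif2ak2, the kinase PKR that halts translation, did not pass the test without the block. The call of Oas3 was lost with no filter (adjusted p = 0.0511), and Oasl1 was called without the pool 15 array of Rosi (-1.56 ± 0.57, adjusted p = 0.02). Oasl2 was at 8.40, 9.68, 8.57 and 8.49 in Rosi, against 9.98, 10.18, 10.12 and 9.56 in vehicle (-1.17 ± 0.36, adjusted p = 0.00572). Bst2 had the smallest adjusted p of all members (-1.02 ± 0.25, adjusted p = 0.000589), at 9.61, 10.17, 9.68 and 9.44 in Rosi, against 10.98, 10.92, 10.71 and 10.38 in vehicle. Its groups did not overlap, pool 15 included. Parp14, an ADP-ribosyltransferase, and Trim30a, a TRIM protein, fell by 0.73 and 0.80.

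Irgm1 fell as well, at 6.38, 7.28, 6.05 and 6.18 in Rosi, against 7.51, 7.86, 7.65 and 7.35 in vehicle (-1.12 ± 0.30, adjusted p = 0.00177), again with no overlap. Igtp stood at 6.78, 8.17, 6.53 and 6.35 in Rosi and 7.94, 8.18, 7.36 and 7.26 in vehicle (-0.73 ± 0.44, adjusted p = 0.173), and the 2 pool 15 arrays were nearly equal. Several classical members did not pass. Isg15 stood at 7.22, 8.42, 7.34 and 7.25 in Rosi, against 8.10, 8.72, 8.38 and 7.94 in vehicle (-0.73 ± 0.46, adjusted p = 0.2), Ifit1 at 7.47, 8.79, 6.91 and 7.20, against 8.37, 9.35, 9.04 and 8.39 (-1.19 ± 0.59, adjusted p = 0.0907), and Mx2, of the Mx GTPases, at 4.09, 5.19, 3.53 and 3.80, against 4.64, 5.04, 4.06 and 4.37 (-0.37 ± 0.51, adjusted p = 0.579). Mx2 lay near the table's median of 4.05 on several arrays of both groups. The ISG15 ligase Herc6 had an adjusted p of 0.0503. Without the pool 15 array of Rosi, left out for its high values, 9 further members fell. They were Ifi213, Oasl1, Ifit1 (-1.59 ± 0.62, adjusted p = 0.0294), Ifit2, Herc6 (-1.30 ± 0.41, adjusted p = 0.00711), Xaf1, Samd9l, Phf11d and Igtp (-1.13 ± 0.45, adjusted p = 0.0322). In that fit Isg15 (-1.02 ± 0.49, adjusted p = 0.0815) and Mx2 (-0.72 ± 0.53, adjusted p = 0.269) still did not pass. With the block, the 11 further members that fell were Usp18, Ifi213, Oasl1, Eif2ak2, Ifit1, Ifit2, Herc6, Xaf1, Samd9l, Phf11d and Igtp. The 9 that passed in neither fit were Ifit3, Mx1, Mx2, Isg15, Rsad2, Cmpk2, Rtp4, Ifi35 and Gbp3.

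**Figure D4:**
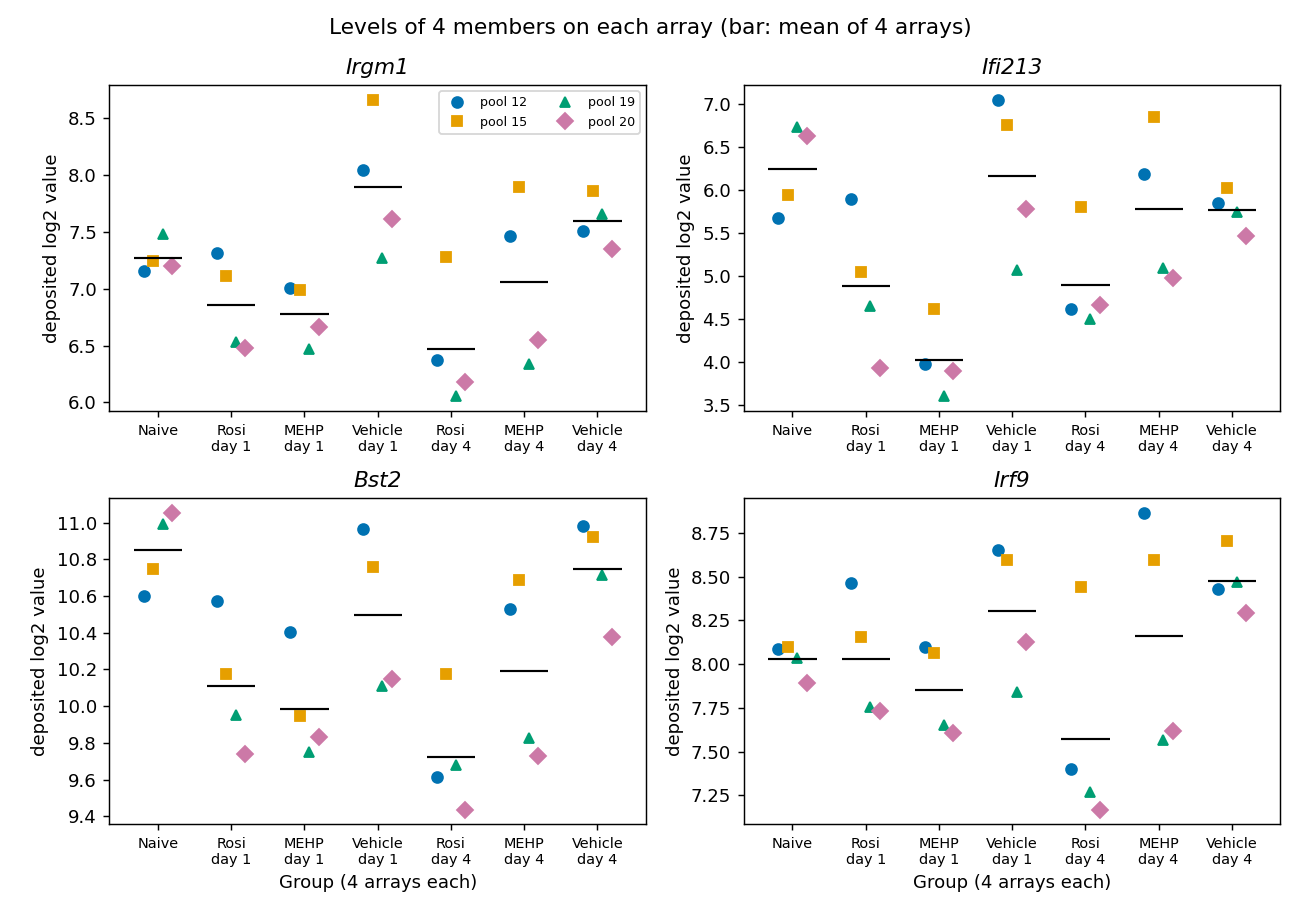
Deposited log2 values (vertical axes) of Irgm1, Ifi213, Bst2 and Irf9 on each array of naive, Rosi, MEHP and vehicle groups (horizontal axes), with a symbol for each pool and a bar at the mean of 4 arrays. Bst2 and Irgm1 in Rosi at day 4 lie below vehicle at day 4 on all 4 arrays, and Ifi213 in MEHP at day 1 lies below vehicle at day 1 on all 4.

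Genes of the pathway outside the members moved at Rosi day 4 as follows, beside 27.7% of all genes tested that fell. Of all 14911 genes, 7316 were called in either direction there and 4133 of these fell, the rest having risen. Of 19 tested ligand, receptor and signalling genes, 11 fell and 2 rose, with Ifngr2 (-0.78 ± 0.10), a chain of the interferon gamma receptor, Il10rb (-1.04 ± 0.15), a receptor chain shared with interferon lambda, Socs3 (-1.58 ± 0.23), a feedback inhibitor, and Pias1 (-0.70 ± 0.11) having the smallest adjusted p. The 2 that rose, Ifngr1 (0.32 ± 0.11) and Ptpn11 (0.56 ± 0.10), were chosen for mention after their values were seen. Of 19 upstream sensing genes 14 fell, among them Tlr7 (-1.44 ± 0.18), Sting1 (-1.66 ± 0.23), Samhd1 (-0.75 ± 0.12) and Irf8 (adjusted p = 5.73e-05), and 1 rose, Mavs (0.31 ± 0.11), also named after its value was seen. Of 39 interferon-responsive genes that were not members, 20 fell, among them Lgals9 (-1.59 ± 0.24), Pml (-0.95 ± 0.15) and Ifitm3 (-1.25 ± 0.20), and 1 rose, Ifi27 (2.00 ± 0.17). Antigen presentation genes largely did not pass: H2-T23 (-1.06 ± 0.36) and Tap1 (-0.65 ± 0.24) fell and Psme2 (0.82 ± 0.19) rose, out of 15, and 4 fell with the block.

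Markers of the cells in these cultures moved at the same time, and their counts also stand beside the 27.7% of all genes that fell. Counts of markers that rose stand beside the 7316 of 14911 genes called in either direction, of which 4133 fell. Of 18 macrophage and monocyte markers 15 fell at Rosi day 4, with a median of -1.02 and a mean level per array of 8.80, 9.49, 8.47 and 8.47 in Rosi, against 10.00, 9.91, 9.70 and 9.67 in vehicle. The pool 15 array, which was high for the members, was also the highest of the Rosi arrays here. The 3 pan-leukocyte genes fell too, with list means of 7.54 to 8.56 in Rosi, against 8.50 to 9.01 in vehicle. Of 15 stromal markers 11 fell, at 8.13 to 8.56 in Rosi, against 8.81 to 9.75 in vehicle, and 6 of 6 adipocyte genes rose, at 11.5 to 11.7 in Rosi, against 7.86 to 9.34 in vehicle. Of other lists, 1 of 11 neutrophil markers fell (Csf3r), 1 of 8 T and NK cell markers (Cd4), 1 of 6 plasmacytoid dendritic cell markers (Tcf4) and 3 of 5 osteoclast markers (Ctsk, Dcstamp and Ocstamp), 1 of 5 endothelial markers rose (Kdr), and no dendritic cell or B cell marker was called. The part of these cells in the members' values was not tested.

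Of the 5 chemicals at day 4, LG268 and TBT had the members' medians nearest to vehicle. The median difference was -0.08 for LG268 and 0.04 for TBT, beside -0.02 and -0.04 over all genes. No member passed, with or without the block, and none was past an unadjusted p of 0.05, against 6.47% of all genes called in either direction for LG268 and 20.1% for TBT (20.6% and 32% past the unadjusted threshold). The member with the smallest p was Irgm1 under LG268, at 7.27, 7.46, 7.15 and 7.07 in LG268, against 7.51, 7.86, 7.65 and 7.35 in vehicle, a difference of -0.36 with a 95% interval of -0.97 to 0.25. Under TBT it was Mx2, at 5.09, 5.52, 4.92 and 4.74 in TBT, against 4.64, 5.04, 4.06 and 4.37 in vehicle, a difference of 0.54 with an interval of -0.48 to 1.56. These intervals do not show that the levels were equal.

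TPhP at day 4 had the highest group means, and 33 of 34 differences from vehicle were above 0, with a median of 0.22 beside -0.03 over all genes. By pool the median was 0.68, 0.47, -0.56 and 0.49, so pool 19 ran the other way, and 1 member had the same sign in 4 of 4 pools. No member passed the test, 1 was past an unadjusted p of 0.05 (30.1% of all genes), and 18.9% of all genes were called in either direction. With the block 1 rose, against 12.5% of all genes: Gbp3, a guanylate-binding protein (0.93 ± 0.31, adjusted p = 0.0239 with the block). Igtp stood at 8.37, 9.51, 7.07 and 8.36 in TPhP, against 7.94, 8.18, 7.36 and 7.26 in vehicle, and Ifit1 stood at 10.59, 9.80, 7.48 and 8.66 in TPhP, against 8.37, 9.35, 9.04 and 8.39 in vehicle. Both genes were above vehicle in pools 12, 15 and 20 and below it in pool 19. Macrophage and monocyte markers were at 9.03 to 9.87 in TPhP, against 9.67 to 10.00 in vehicle, with 3 of 18 lower (Itgam, Lyz2 and Ms4a7; 5 with the block). Neutrophil markers were at 4.83, 8.45, 7.06 and 8.37 in TPhP, against 8.57, 8.27, 6.81 and 6.99 in vehicle, so the pool 12 array that was highest for the members was lowest for this list. The part of these cells was not tested.

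MEHP at day 4 divided the pools. The members' median difference from vehicle was 0.24 and 0.17 in pools 12 and 15 and -0.84 and -0.68 in pools 19 and 20, and -0.33 over the 4 pools, beside -0.05 over all genes. In pools 12 and 15 there were 27 and 29 members above vehicle, and in pools 19 and 20 none. Irf7 stood at 10.11, 10.25, 8.44 and 7.63 in MEHP, against 9.99, 10.09, 9.78 and 9.08 in vehicle, Isg15 at 8.55, 8.81, 7.13 and 6.61 in MEHP, against 8.10, 8.72, 8.38 and 7.94 in vehicle, and Oasl2 at 10.15, 10.43, 8.88 and 8.15 in MEHP, against 9.98, 10.18, 10.12 and 9.56 in vehicle. In each of the 3, the MEHP arrays of pools 12 and 15 lay above their vehicle arrays and those of pools 19 and 20 below. No member passed the test, 1 was past an unadjusted p of 0.05 (34.1% of all genes), and 23.8% of all genes were called in either direction. With the block 2 fell, against 14.7% of all genes: Bst2 (-0.55 ± 0.18, adjusted p = 0.0207 with the block), lower in 4 of 4 pools at 10.53, 10.69, 9.83 and 9.73 in MEHP and 10.98, 10.92, 10.71 and 10.38 in vehicle, and Irgm1 (-0.53 ± 0.21, adjusted p = 0.0495 with the block), lower in 3 of 4. Macrophage and monocyte markers were at 9.31 to 9.86 in MEHP, with 2 of 18 lower than in vehicle (Lyz2 and Ms4a7), and their part was not tested. Ifi27, an interferon-responsive gene outside the members that rose under Rosi, also rose under MEHP (1.13 ± 0.17) and TPhP (1.08 ± 0.17) at day 4.

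**Figure D5:**
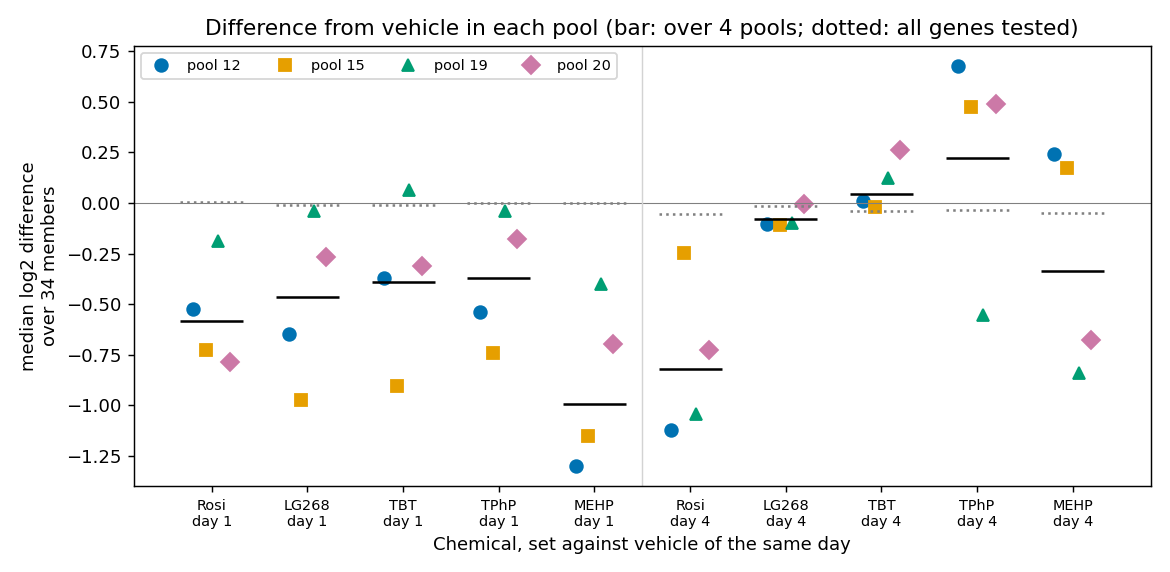
Median log2 difference from vehicle of the same day over 34 members (vertical axis) for each chemical and day (horizontal axis), with a symbol for each pool, a bar for the median of the members' mean differences and a dotted line for all genes tested. At day 1 the bars run from -0.99 to -0.37, and at day 4 the MEHP symbols split into 0.24 and 0.17 against -0.84 and -0.68.

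The change in each chemical's effect between day 4 and day 1 was tested as an interaction. For MEHP it was called for Ifi213, 1 of 34 against 4.29% of all genes that were higher (2.15 ± 0.63, adjusted p = 0.0298). Its difference from vehicle was 0.01 at day 4 and -2.14 at day 1, and the interaction was above 0 in 4 of 4 pools. The call was lost whichever of the 4 pools was left out, with adjusted p from 0.07 to 0.159, and at 0.0773 when only the arrays of these groups were fitted. For Rosi no member was called, against 30% of all genes in either direction, and none was past an unadjusted p of 0.05 (38.6% of all genes). With the block Irf9 was called, its difference from vehicle being lower at day 4 than at day 1 (-0.63 ± 0.23, adjusted p = 0.0316 with the block), 1 of 34 against 18.8% of all genes. Irf9 was also the member called in limma without the pool 15 array of Rosi day 4 (-0.92 ± 0.33, adjusted p = 0.0294), against 18.2% of all genes that were lower. That array was left out for its high member values, so a lower value follows from the choice and the call is not separate support. For TPhP no member was called (4.49% of all genes were), 2 were past an unadjusted p of 0.05 (17.3% of all genes), and with the block Igtp was called (1.45 ± 0.44, adjusted p = 0.0354 with the block), 1 of 34 against 5.12% of all genes. For LG268 and TBT no member was called in either fit, against 0.0805% and 1.77% of all genes, and 1 member each was past an unadjusted p of 0.05 (6.14% and 15.7% of all genes). Medians of the interaction were -0.21 for Rosi, 0.36 for LG268, 0.38 for TBT, 0.56 for TPhP and 0.59 for MEHP, and these values rest in part on the shared vehicle arrays.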

How the data were processed

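The arrays (Affymetrix Mouse Gene 2.0 ST, 52 in all) measured RNA of 4 pools in each of 13 groups set by the sample titles. Values were deposited on a log2 scale for 41345 probe sets, a scale that follows from the values and the authors' tools: per the submitters' processing notes the tools were R 3.3.1 and oligo, and for background correction and normalization the method is not given in the sources used here. Array medians lay between 3.97 and 4.15. Array data give no read depth, and precision is limited by 4 arrays per group. The platform annotation put 1 gene on 23521 probe sets, several on 1814 and none on 16010. The highest-mean probe set stood for a gene, which affected Ifi35 among the members.

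Here, limma 3.58.1 (R 4.3.3) fitted the group means of all 52 arrays (39 residual degrees of freedom, 3.45 prior) over 14911 genes, with moderated tests and Benjamini-Hochberg adjustment at 0.05 within each of 18 comparisons. The code was tested on simulated data. Members and gene lists were chosen with earlier results of these data known. Named were every member called (at most the 12 smallest adjusted p), the members with the smallest p and the highest-mean member of each role, and up to 4 called genes of other lists. The pool number marks the same pooled animals, per the labels' growth protocol, and 43 of 52 arrays correlated best, after removal of group means, with another array of their own pool (median same-pool r 0.339). Every group held 1 array of each pool, and the main fit left the differences between pools in its error. The fit with the pool as replicate block, an alternative, took them out and gave members smaller SEs. Under LG268 at day 1, for example, the SE of Usp18 was 0.519 in the main fit and 0.324 with the block. A member that did not pass in the main fit was thus tested against a wider spread. Other alternatives were fitting only the groups compared, cyclic loess, the mean of probe sets, other filters, and leaving out each pool or, added after seeing the data, the array of Rosi day 4 from pool 15.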

Additional observations from a re-analysis of the deposited data

Results flagged for a closer look

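Of 442 gene and group combinations examined for an array far from the other 3 of its group, 22 met the 95% limit of Dixon's test (4.98%), where chance flags about 1 in 20. Of the 22, 15 were the high array of Rosi day 4 from pool 15. Its values were 9.79 for Irf7, 9.15 for Stat2, 8.93 for Zbp1, 5.80 for Ifi213 and 8.40 for Oas2. They were 7.47 for Oasl1, 9.68 for Oasl2, 8.15 for Eif2ak2, 5.62 for Ifit2 and 8.42 for Isg15. They were 8.19 for Herc6, 7.74 for Cmpk2, 7.99 for Xaf1, 8.24 for Ifi35 and 7.25 for Gbp3. The median of the members' centred values on that array, 0.53, was set apart from the other 3 of its group in the same way.

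The remaining 7 were spread over other groups. The array of pool 12 was high for Irf7 (9.61) and Bst2 (10.96) in TBT at day 1, for Bst2 in TPhP at day 1 (11.10) and for Ifit2 in MEHP at day 1 (5.11). The array of pool 19 was low for Ddx60 in MEHP at day 1 (5.30). In naive cells the array of pool 15 was low for Rsad2 (6.53) and Parp14 (8.51).

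The effect of MEHP on Ifi213 differed between day 4 and day 1 by 2.15 ± 0.63 (interaction in limma, adjusted p = 0.0298), above 0 in 4 of 4 pools.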

How the results depend on the processing

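With the pool as replicate block, the members called numbered 1 for vehicle day 1 against naive, 1 for vehicle day 4 against naive, 3 for Rosi day 1, 10 for MEHP day 1, 25 for Rosi day 4, 1 for TPhP day 4, 2 for MEHP day 4, 1 for the Rosi interaction and 1 for the TPhP interaction, and the block changed no other count. Fitting only the arrays compared gave 2 for vehicle day 4 against naive, 0 for Rosi day 1 and 0 for the MEHP interaction, and kept the other 15 counts within 1.5 times. Leaving out each pool gave 0 to 1 for vehicle day 1 against naive (1 without pool 12), 0 to 1 for Rosi day 1 and for MEHP day 1 (0 without pool 12, 15 or 20), 4 to 16 for Rosi day 4, 0 to 1 for MEHP day 4 (1, Bst2, without pool 12) and 0 in each case for the MEHP interaction. Without the Rosi day 4 array of pool 15, chosen after seeing the data for its high member values, the counts were 23 for Rosi day 4 and 1 for the Rosi interaction. Cyclic loess, the mean of probe sets, no filter and the stricter filter kept all 18 counts within 1.5 times, although at Rosi day 4 Irf7 and Ifih1 lost the call under loess (adjusted p = 0.0534 and 0.0602) and Irf7, Ifih1 and Oas3 with no filter (0.0543, 0.0629 and 0.0511). Leaving out a pool leaves fewer arrays, and otherwise the cause was not tested. Where a member was called in the main fit or in an alternative, its difference had the same sign in both. Differences called in neither were left out of this check. Mx1 lay above the table's median of 4.05 on 21 of 52 arrays and Mx2 on 35, so signal over background limits both.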
